A study of Mus musculus with 9 samples.

Results

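Keratins are the intermediate filament proteins of epithelial cells, and 8 of them were followed through RNA-seq libraries of the embryonic mouse lens: *Krt5*, *Krt7*, *Krt8*, *Krt14*, *Krt15*, *Krt17*, *Krt18* and *Krt19*. They were chosen by symbol, and with their difference between genotypes already known, as keratins of simple epithelium (*Krt7*, *Krt8*, *Krt18*, *Krt19*) and of stratified epithelium (*Krt5*, *Krt14*, *Krt15*, *Krt17*). The purpose was to set lens transcripts apart from those of surface ectoderm, library by library. All 8 were found among the 55416 gene identifiers of the count tables, and 4 of the 8 (*Krt8*, *Krt15*, *Krt18* and *Krt19*) passed the filter on low counts, so the other 4 are given by their counts alone.

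Whole lenses were taken at E16.5 from embryos homozygous for the *Atf4*tm1Tow allele, in which part of *Atf4* is replaced by a neomycin resistance cassette, and from their wildtype littermates, and the study asked which genes depend on this transcription factor in the developing lens. There were 4 *Atf4* null and 5 wildtype libraries, each from the pair of lenses of a single embryo, so the spread between libraries is a spread between embryos. The allele is a germline null, removed from every tissue of the embryo and not from the lens alone, on a mixed C57Bl/6/129 background. All embryos came from heterozygous parents and received no treatment. The libraries held between 7440807 and 8906996 counts assigned to genes. *Atf4* itself, in CPM (the count scaled to the library total, adjusted by TMM factors), lay between 119 and 155 in wildtype lenses, and the null lenses held 0.582 to 10.6.

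The library numbered wildtype 5 stood apart from the other 8. Genes of skeletal muscle made up 1.01% of its counts and genes of mesenchyme 1.65%, against at most 0.0143% and 0.0815% in any other library. Its lens fiber genes summed to 63721 CPM, where wildtype 1 to 4 held 109169 to 117192 CPM and *Atf4* null 1 to 4 held 49260 to 117300. The differences between genotypes in the keratins are therefore given with and without wildtype 5. The number 5 is only a name, because the wildtype titles and the libraries named with their counts do not match by number.

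A keratin filament is built from pairs of a type I and a type II chain, and a chain that lacks its partner is usually degraded. KRT8 (type II) and KRT18 (type I) form the filaments of simple epithelia and are the first keratins of the embryo, with KRT7 and KRT19 added in ducts and linings, whereas KRT5 (type II) and KRT14 (type I) form those of the basal layer of stratified epithelia such as epidermis and cornea, where KRT15 is a further basal chain and KRT17 appears in the periderm, in appendages and after injury. The lens arises from surface ectoderm, but its cells are known for vimentin and for the beaded filament of the lens fiber (BFSP1 and BFSP2) rather than for keratins.

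The type II genes lie on chromosome 15 and the type I genes on chromosome 11, except *Krt18*, which lies beside *Krt8* on chromosome 15. In GRCm39, *Krt8* (ENSMUSG00000049382) spans chr15:101905133-101912917 on the minus strand and *Krt18* (ENSMUSG00000023043) chr15:101936615-101940462 on the plus strand, while *Krt19* (ENSMUSG00000020911) spans chr11:100031636-100039491 and *Krt15* (ENSMUSG00000054146) chr11:100022584-100026775, both on the minus strand. The other 4 were *Krt5* (ENSMUSG00000061527, chr15:101615505-101621346), *Krt7* (ENSMUSG00000023039, chr15:101308924-101328194), *Krt14* (ENSMUSG00000045545, chr11:100093988-100098490) and *Krt17* (ENSMUSG00000035557, chr11:100147040-100151974). All values are counts over the exons of these genes. Genes on the opposite strand overlap *Krt5*, *Krt7* and *Krt8*, and their own counts were 0 in all libraries except for *Gm36026*, across from *Krt8*, with 10 counts in *Atf4* null 2 and 1 count in wildtype 2. *Krt19* is also overlapped on the opposite strand, by *Gm73150*, which was not among the genes counted.

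The promoters of *Krt8* and *Krt18* are shown because these genes encode the partners of a filament, lie side by side and were the nearest to each other in profile among the 4 keratins tested. RefSeq promoter windows were available for 5 of the 8 genes, and each is given here from 250 bases before to 20 bases after the annotated start, 5′ to 3′ on the strand of the gene, in GRCm38.p6. The *Krt8* window is chr15:102004323-102004592 on the minus strand, and its capitals mark the letters TATAAA with an overlapping match on the other strand. They span bases 248 to 255 of the window, across the annotated start, and not the place upstream of a start where a TATA box usually lies. The *Krt18* window is chr15:102027966-102028235 on the plus strand, and its capitals mark a match to the AP-2 site GCCNNNGGC.
Krt8: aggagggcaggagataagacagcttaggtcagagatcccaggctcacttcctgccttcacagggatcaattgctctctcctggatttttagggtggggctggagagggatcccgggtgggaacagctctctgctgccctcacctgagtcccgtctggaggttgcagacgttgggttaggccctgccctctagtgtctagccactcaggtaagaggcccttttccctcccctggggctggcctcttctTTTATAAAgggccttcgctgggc
Krt18: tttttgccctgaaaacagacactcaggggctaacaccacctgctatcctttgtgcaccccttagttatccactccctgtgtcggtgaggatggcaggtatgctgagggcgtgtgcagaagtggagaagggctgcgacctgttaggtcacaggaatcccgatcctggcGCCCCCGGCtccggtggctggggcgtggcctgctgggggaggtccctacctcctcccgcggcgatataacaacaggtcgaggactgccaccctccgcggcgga
Both strands were searched for 6 motifs. TATAAA is present in 12.9% of the 32851 RefSeq windows of this length and was found in the window of *Krt8* but not in that of *Krt18*, and GCCNNNGGC is present in 14.8% and was found in that of *Krt18* but not in that of *Krt8*. Neither window held the letters of an Sp site (GGGCGG, 34.1% of windows), an AP-1 site (TGANTCA, 7.23%), an EGR site (GCGNGGGCG, 5.13%) or an ATF4 and C/EBP element (TGATGNAA, 3.69%). A match is a description of the sequence and not a bound site.

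*Krt19*, a type I chain of simple epithelia and ducts, was the keratin with the largest difference in mean CPM between the genotypes. It had 86, 103, 141 and 182 counts in *Atf4* null 1 to 4, and 1, 5, 0, 5 and 20 counts in wildtype 1 to 5. Scaled by TMM factors, these were 8.57, 12.4, 15.5 and 26.5 CPM in the *Atf4* null and 0.128, 0.617, 0, 0.633 and 2.14 CPM in the wildtype libraries. Every *Atf4* null library was above every wildtype library, including wildtype 5, and the lowest wildtype value, a count of 0 in wildtype 3, allows up to 3 counts. The means were 15.7 ± 7.72 CPM (SD, n = 4) and 0.704 ± 0.852 CPM (SD, n = 5), with a log2 fold change of 4.41 (SE 0.72) in edgeR's quasi-likelihood fit. Without wildtype 5 the log2 fold change was 5.46 (SE 0.64), and the *Atf4* null mean was 45.6 times the mean of wildtype 1 to 4. This difference was part of what singled the gene out, so it is given without a p-value.

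*Krt18*, the type I chain of simple epithelia, was the keratin with the most counts in wildtype 1 to 4. It had 83, 62, 70 and 84 counts in *Atf4* null 1 to 4, and 32, 27, 35, 25 and 139 counts in wildtype 1 to 5. In CPM these were 8.27, 7.44, 7.68 and 12.2 against 4.11, 3.33, 4.32, 3.16 and 14.9. The highest value of all was that of wildtype 5, and the *Atf4* null libraries lay between it and wildtype 1 to 4, so the groups overlapped only through this library. The log2 fold change was 0.57 (SE 0.47) over all libraries, from means of 8.90 ± 2.24 CPM (SD, n = 4) and 5.96 ± 5.01 CPM (SD, n = 5). Without wildtype 5 it was 1.25 (SE 0.38), against a wildtype mean of 3.73 ± 0.570 CPM (SD, n = 4).

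*Krt8*, the type II partner of *Krt18*, had fewer counts. It had 19, 20, 28 and 15 counts in *Atf4* null 1 to 4, and 6, 3, 4, 6 and 34 counts in wildtype 1 to 5. In CPM these were 1.89, 2.40, 3.07 and 2.18 against 0.770, 0.370, 0.494, 0.759 and 3.64. Again wildtype 5 was the highest, and the *Atf4* null libraries were all above wildtype 1 to 4. The log2 fold change was 0.96 (SE 0.74), from means of 2.39 ± 0.501 CPM (SD, n = 4) and 1.21 ± 1.37 CPM (SD, n = 5), and 1.98 (SE 0.73) without wildtype 5.

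**Figure D1:**
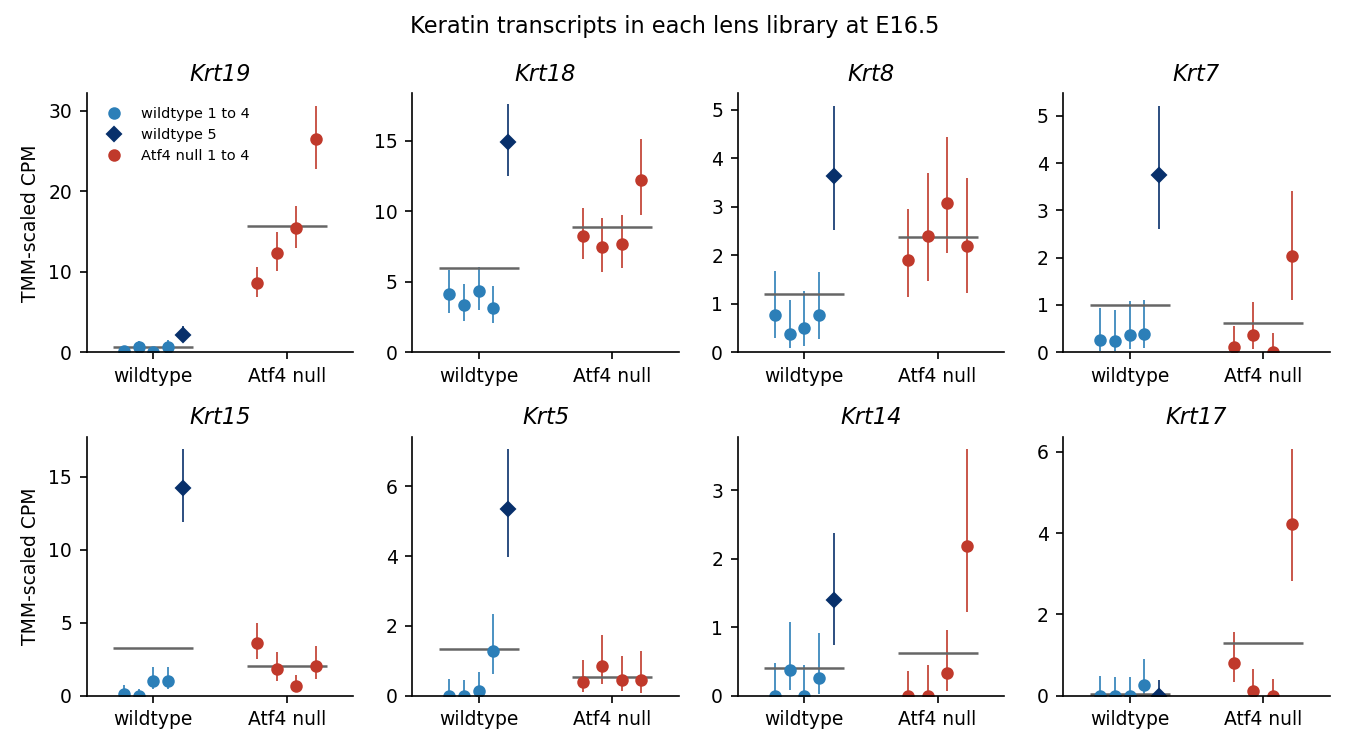
Each panel plots 1 keratin, with TMM-scaled CPM on the vertical axis and the libraries of each genotype side by side; bars are 95% exact Poisson intervals of the counts, and the grey line is the mean of the group, wildtype 5 included. For Krt19 the Atf4 null libraries, at 8.57 to 26.5 CPM, lie above all wildtype libraries, whereas for Krt18, Krt8, Krt7, Krt15 and Krt5 the highest point is wildtype 5.

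The plot of the keratins by library shows these values with intervals that cover counting error only. The keratins of stratified epithelium follow. *Krt15*, a type I chain of basal cells, had 36, 15, 6 and 14 counts in *Atf4* null 1 to 4, and 1, 0, 8, 8 and 133 counts in wildtype 1 to 5. In CPM these were 3.59, 1.80, 0.658 and 2.04 against 0.128, 0, 0.988, 1.01 and 14.2. Wildtype 5 was 26.8 times the mean of wildtype 1 to 4 and above every *Atf4* null library, and *Atf4* null 3 was below wildtype 3 and 4, so the groups overlapped with and without wildtype 5. The log2 fold change was -0.70 (SE 1.18) over all libraries, and without wildtype 5 the gene no longer passed the filter. The direction of the means turned with that library, from 2.02 CPM in the *Atf4* null against 3.27 CPM in wildtype 1 to 5 to 2.02 CPM against 0.532 CPM in wildtype 1 to 4, or 3.80 times as high in the *Atf4* null.

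*Krt5*, the basal type II chain, had 4, 7, 4 and 3 counts in *Atf4* null 1 to 4, and 0, 0, 1, 10 and 50 counts in wildtype 1 to 5. *Krt14*, its type I partner, had 0, 0, 3 and 15 counts in the *Atf4* null and 0, 3, 0, 2 and 13 counts in the wildtype libraries. *Krt17*, a type I chain of periderm and appendages, had 8, 1, 0 and 29 counts in the *Atf4* null and 0, 0, 0, 2 and 0 counts in the wildtype libraries. The genotypes overlapped for all 3, and their counts were concentrated in few libraries: *Krt5* in wildtype 5 (5.35 CPM), *Krt14* in *Atf4* null 4 and wildtype 5 (2.18 and 1.39 CPM), and *Krt17* in *Atf4* null 4 (4.22 CPM) but at 0 in wildtype 5. *Krt7*, a type II chain of ducts and linings, had 1, 3, 0 and 14 counts in the *Atf4* null and 2, 2, 3, 3 and 35 counts in the wildtype libraries, with overlap and with its highest value, 3.75 CPM, in wildtype 5. None of these 4 passed the filter, so no difference between genotypes was fitted. The *Atf4* null mean minus the wildtype mean was -0.82 CPM for *Krt5*, -0.38 CPM for *Krt7*, 0.23 CPM for *Krt14* and 1.23 CPM for *Krt17*. Without wildtype 5 these were 0.18, 0.31, 0.47 and 1.22 CPM, so the sign turned for *Krt5* and *Krt7*.

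Of the 4 keratins tested, *Krt19* alone passed a Benjamini-Hochberg adjusted p of 0.05, where 5.90% of all 14903 genes tested passed it in either direction and 2.23% were higher in the *Atf4* null lens. *Krt19* was also the keratin whose groups did not overlap in the *Atf4* null direction with all libraries, as for 4.65% of all genes (10.2% in either direction), and *Krt8*, *Krt18* and *Krt19* did so without wildtype 5, as for 6.67% of the 14493 genes tested then. Without wildtype 5 the call of *Krt19* was 1 of 3 keratins tested, beside 8.33% of all genes in either direction and 3.37% higher in the *Atf4* null. These shares are background for a list chosen with its values known, and nothing is read from the counts. The call is no test of *Krt19*, which was chosen with that difference known. Its wildtype counts were 0 to 20, and it reached the filter only through the *Atf4* null libraries.

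The 8 keratins differed between libraries in their sum and in their make-up. They summed to 23.6, 25.3, 27.6 and 51.8 CPM in *Atf4* null 1 to 4, and to 5.39, 4.94, 6.30, 7.72 and 45.4 CPM in wildtype 1 to 5. Wildtype 5 thus lay within the *Atf4* null range, but 4.72% of its keratin counts were *Krt19*, against 36.3% to 56.0% in the *Atf4* null libraries and 0% to 12.5% in wildtype 1 to 4. *Krt18* made up 76.2%, 67.5%, 68.6% and 41.0% of the 8 in wildtype 1 to 4, 32.8% in wildtype 5, and 23.6% to 35.0% in the *Atf4* null libraries. The 5 genes other than *Krt8*, *Krt18* and *Krt19* made up 7.14%, 12.5%, 23.5% and 41.0% in wildtype 1 to 4, 54.5% in wildtype 5 and 5.16% to 21.1% in the *Atf4* null libraries, so wildtype 3 and 4 were also above the *Atf4* null range.

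**Figure D2:**
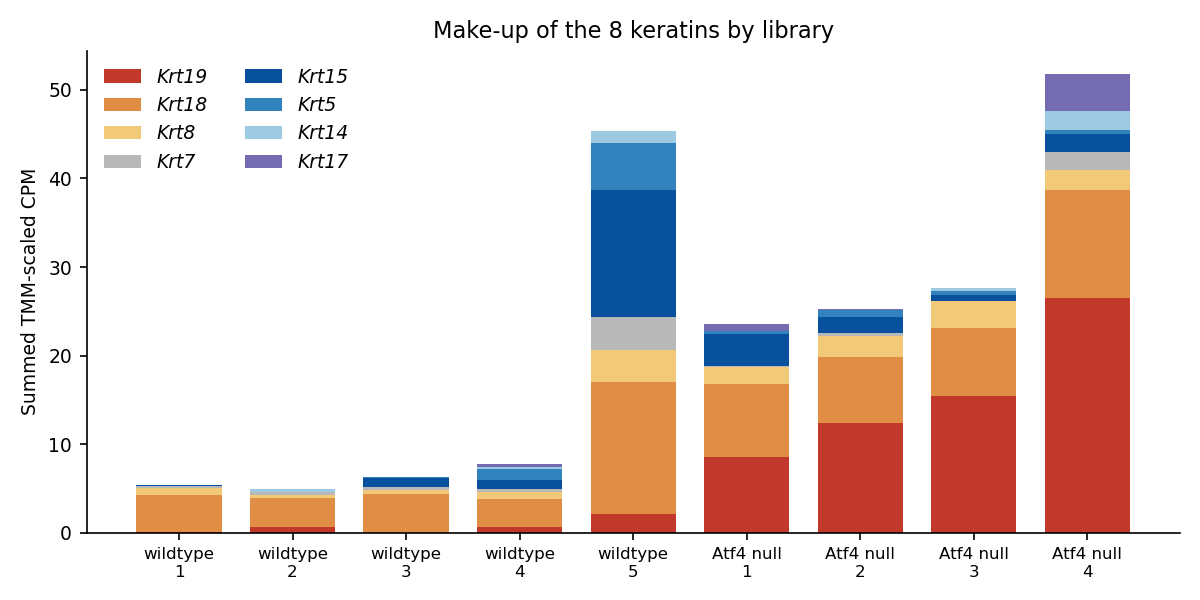
Stacked bars give the TMM-scaled CPM of the 8 keratins in each library, from 0. Wildtype 5 and Atf4 null 4 reach 45.4 and 51.8 CPM, the first mostly from Krt18, Krt15 and Krt5 and the second mostly from Krt19 and Krt18.

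The stacked bars of the make-up place the *Krt19* difference beside 3 keratins of the basal layer. *Krt5*, *Krt14* and *Krt15*, without *Krt17*, together had 40, 22, 13 and 32 counts in *Atf4* null 1 to 4, and 1, 3, 9, 20 and 196 counts in wildtype 1 to 5. Of the counts of *Krt19* and these 3 genes, *Krt19* took 68.3% (95% Clopper-Pearson interval 59.4% to 76.3%), 82.4% (74.6% to 88.6%), 91.6% (86.0% to 95.4%) and 85.05% (79.6% to 89.5%) in *Atf4* null 1 to 4. In wildtype 5, the library with the most counts of these 3 keratins, it took 9.26% (5.75% to 13.9%), and in wildtype 4 it took 20% (6.83% to 40.7%). The intervals of these 2 wildtype libraries did not reach those of any *Atf4* null library. The other wildtype libraries had too few of these counts for a narrow share, with *Krt19* at 1 of 2, 5 of 8 and 0 of 9 counts in wildtype 1, 2 and 3. The intervals hold counting error within a library and not the spread between embryos, those of wildtype 1 and 2 reached the *Atf4* null shares, and the *Krt19* difference that chose the gene enters these shares, so they are a description. *Krt17*, the remaining stratified keratin, was at 0 in wildtype 5 and highest in *Atf4* null 4. With it in the sum, a choice made after the values were seen, *Krt19* took 64.2%, 81.7%, 91.6% and 74.9% in *Atf4* null 1 to 4, 18.5% in wildtype 4 and 9.26% in wildtype 5.

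**Figure D3:**
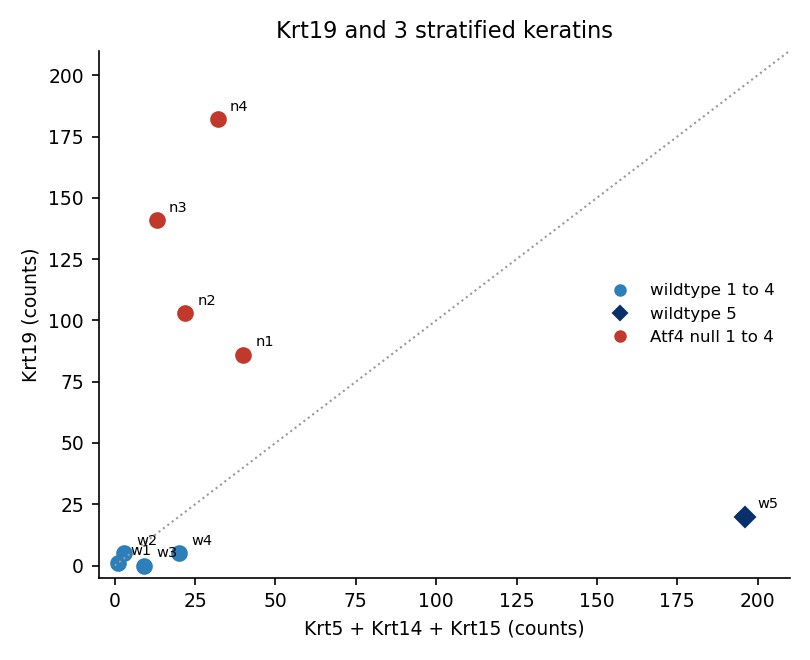
Counts of Krt19 (vertical axis) against the summed counts of Krt5, Krt14 and Krt15 (horizontal axis) in each library, with w1 to w5 for wildtype and n1 to n4 for Atf4 null and a dotted line of equality. The Atf4 null libraries lie above the line at 86 to 182 Krt19 counts, and wildtype 5 lies far below it at 196 counts of the 3 basal keratins and 20 Krt19 counts.

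The plot of *Krt19* against the 3 basal keratins shows that separation in raw counts. Per length, as FPKM (CPM per kilobase of exon), the keratins can be ranked within a genotype. In the *Atf4* null lens *Krt19* was first at 8.48 ± 4.16 FPKM (SD, n = 4) and *Krt18* second at 6.20 ± 1.56 FPKM (SD, n = 4), with overlapping ranges. *Krt8* followed at 1.22 ± 0.256 FPKM, below every *Krt18* value, and its range overlapped that of *Krt15* at 1.13 ± 0.674 FPKM. *Krt17*, *Krt14*, *Krt5* and *Krt7* lay at 0.768, 0.335, 0.239 and 0.0886 FPKM on average, each overlapping the next.

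In wildtype 1 to 4 *Krt18* was first at 2.60 ± 0.396 FPKM (SD, n = 4), above all values of the other keratins. *Krt8* (0.306 FPKM), *Krt15* (0.297), *Krt19* (0.186), *Krt5* (0.157), *Krt14* (0.0832), *Krt7* (0.0445) and *Krt17* (0.0378) followed, with every neighbouring pair overlapping. In wildtype 5 the order was *Krt18* at 10.4, *Krt15* at 7.96, *Krt5* at 2.42, *Krt8* at 1.86 and *Krt19* at 1.15 FPKM. Among 14864 tested genes with an exon length, the mean level of *Krt19* in wildtype 1 to 4 was above 2.70% of them and its mean in the *Atf4* null above 77.4%. For *Krt18* these shares were 45.2% and 69.7%, and for *Krt8* 5.90% and 26.3%.

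Type I and type II chains pair in equal numbers, so their summed transcript levels were set against each other. The ratio of summed type I to summed type II FPKM was 11.1, 7.80, 8.05 and 17.2 in *Atf4* null 1 to 4, and 6.98, 12.7, 9.87, 3.35 and 4.20 in wildtype 1 to 5. The groups overlapped. The ratio of *Krt18* to *Krt8* FPKM was 5.95, 4.22, 3.41 and 7.63 in the *Atf4* null and 7.27, 12.3, 11.9, 5.68 and 5.57 in the wildtype libraries, and the groups overlapped there too. In each library the type I transcripts were above the type II transcripts, with no other keratin added to either sum.

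Profiles over the 9 libraries were compared by the root-mean-square distance between centred log2 CPM (prior count 2), in which 0 is an identical profile. Between the keratins, *Krt8* and *Krt18* were the nearest at 0.43, while *Krt19* was 1.74 from *Krt8*, 1.93 from *Krt18* and 2.29 from *Krt15*. Of 14899 other genes, the 3 nearest to *Krt19* were *Eda2r*, a receptor of the TNF receptor family (0.73), *Cdkn1a*, which encodes the cell cycle inhibitor p21 (0.81), and *Acta2*, which encodes smooth muscle actin (0.88). *Slc12a4*, a potassium and chloride cotransporter, was among the 3 nearest to both *Krt18* (0.23) and *Krt8* (0.33), with *Adamts17* (0.24) and *Heca* (0.27) for *Krt18* and *Serpine2* (0.27) and *Nab2* (0.31) for *Krt8*. The nearest to *Krt15* were farther, *Lsp1* at 0.58, *Tgfb3* at 0.75 and *Ccdc141* at 0.78.

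Genes chosen by their distance to a profile share its pattern by that choice, so their values are a description. Each neighbour of *Krt19* in profile was higher in every *Atf4* null library than in any wildtype library, with wildtype 5 the highest of the wildtype libraries. *Eda2r* was at 7.67 to 22.6 CPM in the *Atf4* null libraries, at 0 to 0.617 CPM in wildtype 1 to 4 and at 2.57 CPM in wildtype 5. *Cdkn1a* was at 33.7 to 69.2, 1.52 to 2.96 and 8.78 CPM, and *Acta2* at 79.7 to 242.7, 2.44 to 6.18 and 64.0 CPM. The neighbours of *Krt15* had their highest value in wildtype 5, as *Lsp1* did at 40.8 CPM against 0.370 to 4.05 CPM in wildtype 1 to 4, with *Atf4* null libraries at 3.64 to 11.5 CPM.

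The other 46 keratin genes of the mouse had few counts. A count was present in some library for 23 of them, 12 reached 10 counts in some library, and the highest count of any was 45. The filter passed 5 (*Krt1*, *Krt10*, *Krt40*, *Krt73* and *Krt90*), and 0 of the 5 passed the adjusted threshold in edgeR's quasi-likelihood test, where 5.90% of all genes passed in either direction. Of the 5, 1 had an unadjusted p under 0.05, and DESeq2 and edgeR's exact test each called 1. *Krt73*, an inner root sheath keratin, had 26, 27, 11 and 7 counts in the *Atf4* null and 0, 2, 1, 3 and 16 counts in the wildtype libraries (adjusted p = 0.275, edgeR). *Krt40* had 10, 7, 0 and 0 counts in the *Atf4* null and 29, 17, 38, 12 and 40 counts in the wildtype libraries, which did not overlap (adjusted p = 0.124, edgeR). Groups did not overlap for 10.2% of all genes in either direction.

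Keratin filaments are held by plakins and desmosomes and at the basal side by hemidesmosomes. Of 23 such partners, 17 were tested, 0 were higher and 1 was lower in the *Atf4* null lens, where 2.23% and 3.67% of all genes were. The median log2 fold change of the 17 was 0.09 and that of all genes 0.00. The partner that fell was *Dst*, a plakin with epithelial and other isoforms (log2 fold change -0.73, SE 0.14, adjusted p = 0.00837, edgeR). *Itgb4*, the integrin chain of hemidesmosomes, had 49, 42, 22 and 31 counts in the *Atf4* null and 0, 4, 4, 1 and 63 counts in the wildtype libraries, with wildtype 5 again the highest. Its log2 fold change was 1.39 (SE 1.03, adjusted p = 0.519, edgeR) with all libraries and 3.84 (SE 0.85, adjusted p = 0.00945, edgeR) without wildtype 5, when the partners had 1 call in each direction and 8.33% of all genes were called (3.37% higher). This gene was named after its values were seen.

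Of 16 intermediate filament genes other than keratins, 14 were tested, 0 rose and 1 fell, where 2.23% of all genes rose and 3.67% fell, with a median log2 fold change of -0.17. *Bfsp1*, a chain of the beaded filament, fell by 1.42 on the log2 scale (SE 0.25, adjusted p = 0.00417, edgeR), from 41064 to 64058 counts in the wildtype to 16252 to 28164 counts in the *Atf4* null libraries. Without wildtype 5, 2 rose (*Des* and *Lmna*) and 2 fell (*Bfsp1* and *Vim*, which encodes vimentin), where 8.33% of all genes were called.

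Factors known to act on keratin genes had 6 calls among 21 tested of 32, 5 higher and 1 lower, where 2.23% of all genes were higher and 3.67% lower. Those that rose were *Tfap2b* of the AP-2 family, the immediate early gene *Egr1*, and the AP-1 subunits *Junb*, *Jun* and *Jund*, and the 1 that fell was *Tfap2a*, an AP-2 factor of surface ectoderm. By edgeR's quasi-likelihood test the log2 fold change was 2.04 for *Tfap2b* (SE 0.54, adjusted p = 0.0416), 1.53 for *Egr1* (SE 0.28, adjusted p = 0.00531), 1.29 for *Junb* (SE 0.29, adjusted p = 0.0175), 0.67 for *Jun* (SE 0.15, adjusted p = 0.0208), 0.42 for *Jund* (SE 0.11, adjusted p = 0.0459) and -1.17 for *Tfap2a* (SE 0.26, adjusted p = 0.0162). The median of the 21 was 0.32. *Tfap2b* ranged from 6.70 to 35.2 CPM in the *Atf4* null and from 2.03 to 6.67 CPM in wildtype 1 to 4, but wildtype 5, at 12.3 CPM, was above *Atf4* null 4. *Egr1* and *Tfap2a* passed in 16 of 16 alternative settings, *Junb* in 15, *Jun* in 12, *Tfap2b* in 8 and *Jund* in 7, and without *Atf4* null 2 the list kept 2 calls. Without *Atf4* null 2 the adjusted p was 0.0616 for *Junb*, 0.0682 for *Jun*, 0.149 for *Jund* and 0.12 for *Tfap2b*. *Jun* also missed the threshold without wildtype 2, 3 or 4, *Jund* without any library but *Atf4* null 1 and wildtype 5, and *Tfap2b* without any library but *Atf4* null 4 and wildtype 5. *Trp63*, the master factor of stratified epithelium, had 3 counts in *Atf4* null 3, 7 in wildtype 5 and 0 in the other 7 libraries.

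Markers of other cell types were set beside the keratins. Of 28 genes of surface ectoderm and stratified epithelium, none of them a keratin, 24 had a count, 8 had at most 3 counts in every library and 4 had none, among them *Dsg3*, the basal desmoglein. The filter passed 8, of which 0 rose and 1 fell, *Lama3* (log2 fold change -2.74, SE 0.26, adjusted p = 5.99e-05, edgeR), the laminin chain of epithelial basement membranes. Without wildtype 5, 7 were tested, and *Itgb4*, given above as a keratin partner, also passed, so that 1 rose and 1 fell. Over all genes 2.23% rose and 3.67% fell, and without wildtype 5 8.33% were called. The 28 summed to 34.6 to 48.5 CPM in the *Atf4* null, 41.3 to 58.8 CPM in wildtype 1 to 4 and 62.8 CPM in wildtype 5. *Lama3* was 49.9% of that sum in wildtype 1 to 4. Without it the ranges were 30.7 to 45.1, 18.9 to 36.3 and 36.7 CPM, and the *Atf4* null and wildtype libraries overlapped.

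Of 17 genes of simple epithelium, 4 were tested, 0 rose and 1 fell, the E-cadherin gene *Cdh1* (log2 fold change -3.68, SE 0.30, adjusted p = 2.2e-05, edgeR), which lens epithelium also expresses, where 2.23% of all genes rose and 3.67% fell. *Cdh1* was 91.3% of the summed CPM of these genes in wildtype 1 to 4. Without *Cdh1* their sum was 15.02 to 24.6 CPM in the *Atf4* null, 15.02 to 21.9 CPM in wildtype 1 to 4 and 12.3 CPM in wildtype 5. *Epcam*, a marker of simple and surface epithelia, had 50, 13, 37 and 0 counts in the *Atf4* null and 17, 29, 31, 10 and 5 counts in the wildtype libraries, and *St14*, a membrane serine protease of the same list, had 3, 5, 1 and 23 against 0, 0, 0, 4 and 2 counts. *Epcam* was thus lowest and *St14* highest in *Atf4* null 4, the library with the most *Krt19*. Of 12 cornea and conjunctiva genes 1 was tested and 0 were called by edgeR's quasi-likelihood test, DESeq2 or edgeR's exact test, with 0 at an unadjusted p under 0.05 in the first, with sums of 0.329 to 5.82, 0.253 to 7.16 and 9.21 CPM. Their keratins were sparse, with *Krt12* at 7 and 4 counts in *Atf4* null 1 and 2 and 0 in the other 7 libraries, *Krt13* at 9 counts in wildtype 3, 5 in wildtype 5 and 0 in the other 7, and *Krt4* at 0 to 16 and *Krt6a* at 0 to 32 counts, both highest in wildtype 5.

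**Figure D4:**
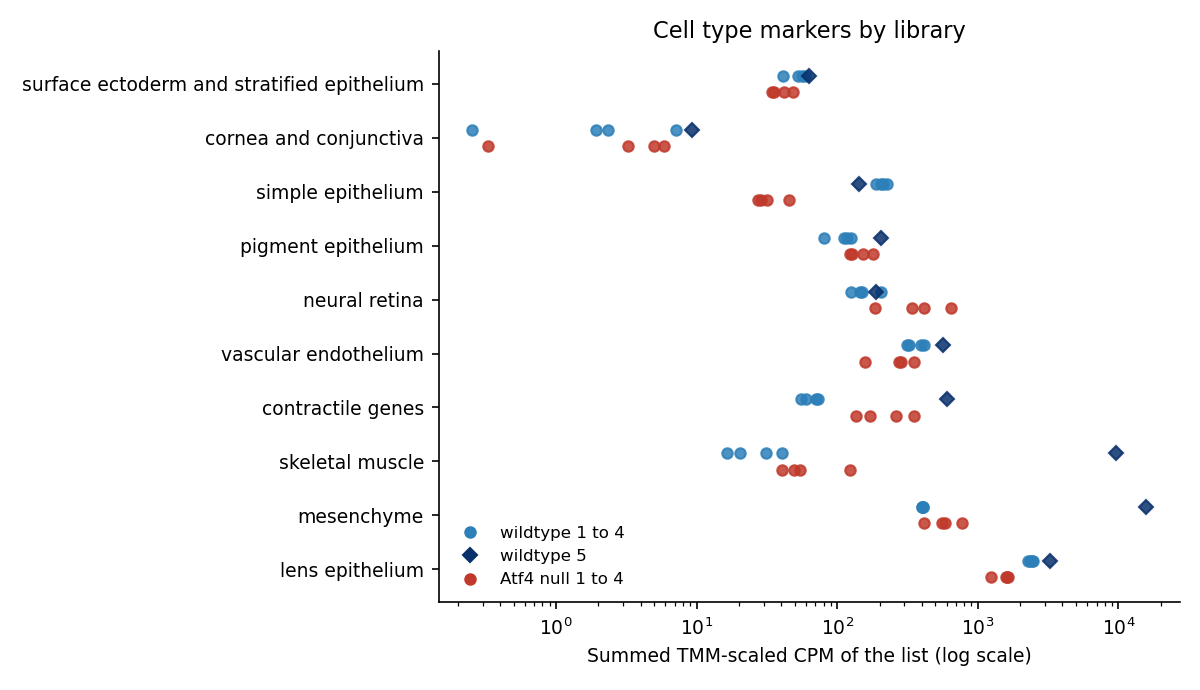
Summed TMM-scaled CPM of each list of marker genes (log scale) in every library. Wildtype 5 stands far to the right for skeletal muscle (9661 CPM) and mesenchyme (15745 CPM). The Atf4 null libraries lie to the right of wildtype 1 to 4 for contractile genes (135 to 349 against 55.2 to 73.3 CPM). Of these genes, Acta2 was at 79.7 to 242.7 against 2.44 to 6.18 CPM. Tagln was also higher, and Tpm2 was at 22.7 to 46.3 against 36.8 to 49.7 CPM. The same libraries lie to the left for lens epithelium and for simple epithelium, where Cdh1 made up 91.3% of the sum in wildtype 1 to 4.

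As the plot of marker lists shows, some sums, among them contractile and lens epithelium genes, separated the *Atf4* null libraries from wildtype 1 to 4. The sum of simple epithelium did so through *Cdh1*, which is also in the lens epithelium list. No list was tested as a whole, and the part of these lists in the keratin values was not tested. Over all genes, 2.23% rose and 3.67% fell, and without wildtype 5 8.33% were called. Lens epithelium genes had 0 rises and 4 falls among 9 tested, at 1238 to 1644 CPM in the *Atf4* null, 2282 to 2476 CPM in wildtype 1 to 4 and 3268 CPM in wildtype 5. In the wildtype 5 sum *Igfbp5* was at 1411 CPM (426 to 536 in wildtype 1 to 4) and *Sparc* at 1082 CPM (738 to 816), while *Foxe3* at 74.9 CPM (102 to 160), *Cdh1* at 130.3 CPM (172 to 204), *Pax6* and *Sox2* were the lowest of the wildtype group. Lens fiber genes had 0 rises and 1 fall among 11. Without wildtype 5 these lists had 5 and 3 falls. Neural retina genes had 3 rises and 0 falls among 10 (187 to 641, 126.1 to 205 and 189 CPM), and contractile genes of smooth muscle and mesothelium 2 rises and 0 falls among 6, with wildtype 5 the highest at 601 CPM. Without wildtype 5 they had 4 and 3 rises, but *Acta2* lost its call in 8 of 16 alternatives, with adjusted p from 0.0649 to 0.0867 (edgeR) without any of *Atf4* null 2, 3 and 4 or wildtype 1 to 4, and 0.156 in the robust fit. Pigment epithelium had 0 calls among 7 tested (124 to 179, 80.4 to 125.5 and 203 CPM) and skeletal muscle 0 among 7 (40.2 to 124, 16.6 to 40.5 and 9661 CPM) by edgeR's quasi-likelihood test, with 1 and 6 at an unadjusted p under 0.05. DESeq2 called 1 and 0 of them, edgeR's exact test 1 and 1, and the fit with no filter on low counts 0 and 9. Mesenchyme had 1 fall among 10 (412 to 771, 398 to 411 and 15745 CPM) and vascular endothelium 1 fall among 8 (157 to 353, 316 to 414 and 568 CPM). The mesenchyme fall was *Pdgfra*, at 6.70 to 26.2 CPM in the *Atf4* null and 180 to 227 CPM in wildtype 1 to 4. *Col1a1*, among the mesenchyme genes that rose without wildtype 5, was at 93.6 to 145.9 against 8.99 to 29.1 CPM. Without wildtype 5, pigment epithelium had 3 rises, skeletal muscle 1 rise, and mesenchyme 6 rises and 1 fall, and the median log2 fold change of the tested mesenchyme genes was 2.52 in place of -2.28 and that of skeletal muscle 1.30 in place of -4.86. The fall in vascular endothelium, *Egfl7*, lost its call in 10 of 16 alternatives, among them library size scaling and each library left out except *Atf4* null 3, with adjusted p = 0.0618 (edgeR) without wildtype 5. In whole lenses a change in the number of cells of a type and a change in RNA per cell cannot be told apart.

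Genes around the keratins were counted as well. Among the 28 tested genes within 1 Mb of *Krt8* and *Krt18*, 0 were higher and 2 lower in the *Atf4* null lens, where 2.23% and 3.67% of all genes were, and among the 32 within 1 Mb of *Krt15* and *Krt19*, 0 were higher and 1 lower. *Krt8* and *Krt18* lie 21.8 Mb from *Atf4* on the same chromosome, and whether 129 sequence around the null allele reaches them was not tested.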

How the data were processed

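Per the methods of the study, the authors made stranded libraries from total RNA, trimmed reads with Trim Galore, removed ribosomal reads (HISAT2), then aligned to GRCm39 and counted reads per gene of Ensembl release 104 with HTSeq. Whole, unnormalised counts per gene were deposited. The strand setting is not given in the sources used here. The 5 HTSeq summary entries, 44.6% to 47.7% of each table, were left out, among them reads aligned to more than 1 place (5.03% to 5.74%), so reads shared with keratin pseudogenes or paralogs were lost and the levels of such genes are uncertain. Depth was 7440807 to 8906996 counts in genes. No column was left unmapped. Identifiers were joined to GENCODE vM39 (GRCm39) for symbols, positions and exon lengths.

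The 9 libraries were compared by genotype with edgeR 4.0.16 in R 4.3.3 (filterByExpr, TMM factors, estimateDisp, glmQLFit and glmQLFTest, no covariate), using Benjamini-Hochberg adjusted p-values over 14903 genes and a threshold of 0.05. CPM (per-library shares of the counts) were scaled by TMM factors. Intervals were exact, from scipy 1.17.1, and cover counting error only. The fit was tested on simulated counts.

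The keratins and all gene lists were chosen with earlier results of these data known, so the keratins carry no p-value. Named beside them are, for each list, up to 5 of the largest rises and 5 of the largest falls among called genes, *Trp63*, the 3 genes nearest to each tested keratin in profile, and *Atf4*; other names were chosen after their values were seen, and rises or falls outside the keratin lists are given as counts. Alternatives were DESeq2 1.42.0, edgeR's exact test and robust fit, scaling by library size, no filter, at least 10 counts in every library, a replicate block, and each library left out. The marker sums without *Lama3* and without *Cdh1*, and the *Krt19* share with *Krt17*, were added after the data were seen.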

Additional observations from a re-analysis of the deposited data

Results flagged for a closer look

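In groups of 4 or 5 libraries, a value is singled out here when its gap to the nearest of the others exceeds Dixon's 95% critical share of the range (0.829 for 4 and 0.71 for 5). Chance alone singles out about 1 in 20 groups where values are normally distributed. That rate need not hold for groups of few counts, such as those of *Krt17* and *Krt5*. Of 50 groups of values tested, 16 had a value singled out, and 11 of these values were in wildtype 5.

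In wildtype 5, the library far from the other wildtype libraries, *Krt5* was at 5.35 CPM, *Krt7* at 3.75, *Krt8* at 3.64, *Krt14* at 1.39, *Krt15* at 14.2 and *Krt18* at 14.9 CPM, each the highest of the wildtype group. For *Krt19* and *Krt17* this library was not singled out. *Krt17* was at 0 there, but *Krt19*, at 2.14 CPM, was also the highest of the wildtype group. That value was 6.22 times the mean of wildtype 1 to 4, where the ratio was 6.08 for *Krt8* and 3.99 for *Krt18*. Among the marker lists of the same library, skeletal muscle at 9661 CPM, mesenchyme at 15745 CPM and contractile genes of mesothelium and smooth muscle at 601 CPM were far above the other 4 wildtype libraries, and lens fiber at 63721 CPM was far below them. The lens epithelium list was above them as a sum, at 3268 CPM, with *Igfbp5* and *Sparc* higher in wildtype 5, while *Foxe3*, *Cdh1*, *Pax6* and *Sox2* were lower there than in wildtype 1 to 4.

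Outside this library, *Krt5* was at 0.840 CPM in *Atf4* null 2 against 0.399 to 0.439 CPM in the other *Atf4* null libraries, a value that rests on 7 counts. *Krt14* was at 2.18 CPM in *Atf4* null 4, from 15 counts, and *Krt17* at 0.253 CPM in wildtype 4, from 2 counts where the other wildtype libraries had 0. The skeletal muscle list summed to 124 CPM in *Atf4* null 1 against 40.2 to 54.3 CPM in the other *Atf4* null libraries. The lens epithelium list summed to 1238 CPM in *Atf4* null 4, the library with the most *Krt19*, against 1582 to 1644 CPM in the others.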

How the results depend on the processing

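Under DESeq2, edgeR's exact test, the robust fit and library size scaling, the signs and calls of *Krt8*, *Krt15*, *Krt18* and *Krt19* were those of the main analysis. Scaling by library size moved the median log2 fold change of all genes from 0.00 to 0.12 and the share of calls that were higher in the *Atf4* null from 37.8% to 64.3%, and *Krt19* was then at 4.45. With at least 10 counts required in every library, *Krt8*, *Krt15* and *Krt19* had no value.

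Leaving out each library in turn gave log2 fold changes from 4.04 to 5.46 for *Krt19*, 0.38 to 1.25 for *Krt18*, and 0.73 to 1.98 for *Krt8*, each highest without wildtype 5. *Krt15* ran from -1.15 to -0.43 over 8 libraries left out and had no fitted value without wildtype 5, where its mean CPM was higher in the *Atf4* null. Genes called ran from 527 (without *Atf4* null 2) to 1207 (without wildtype 5), against 880 with all libraries; calls ran from 1 to 2 among keratin partners, from 1 to 4 among other intermediate filaments (4 without *Atf4* null 4 or wildtype 5) and from 2 to 7 among regulators. DESeq2 called 1397 genes, 1 other keratin and 2 other intermediate filaments, edgeR's exact test 1 other keratin, library size scaling 2 partners, and the fit with no filter 3 other intermediate filaments.

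The replicate numbers did not pair the libraries: same-numbered deviations correlated at -0.131 to 0.00802. With a replicate block, in which the sign of *Krt15* turned, *Krt19* was at 5.55, *Krt18* at 1.23, *Krt8* at 1.99 and *Krt15* at 2.12, with 2 partners and 3 other intermediate filaments called. Wildtype 5 has no partner and so does not enter this contrast. Depth limited *Krt5*, *Krt7*, *Krt14* and *Krt17* most, at 0 to 50 counts per library. With *Krt17* in the sum, *Krt19* took 74.9% in *Atf4* null 4 in place of 85.05%. Without *Lama3* the difference in mean sum of surface ectoderm genes, *Atf4* null minus wildtype, was 7.99 CPM in place of -14.2 CPM, and without *Cdh1* that of simple epithelium was 2.32 in place of -161 CPM.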
